A study of Homo sapiens with 22 samples.

Results

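T98G, an established human glioblastoma cell line much used as a model of temozolomide resistance, was compared with KALS-1 and LN-18, 2 other established human glioblastoma lines. Poly(A) RNA was measured by strand-specific RNA-seq in 2 libraries of T98G (grown in EMEM) and 4 libraries of the other lines, 2 of KALS-1 (RPMI 1640) and 2 of LN-18 (DMEM). All cells were untreated and grown with 10% fetal bovine serum, so each line had its own medium and the line and the medium cannot be told apart. These 6 libraries are part of a series of 22 libraries from 11 lines, and the comparison covers all 2221 genes that the authors list for 8 of those lines. A gene was called higher or lower in T98G when both T98G libraries lay beyond all 4 libraries of KALS-1 and LN-18, the edgeR quasi-likelihood tests against KALS-1 and against LN-18 both passed (the larger p, Benjamini-Hochberg adjusted over the tested genes, under 0.05), and both fold changes were at least 2-fold (1 on the log2 scale). Levels are in CPM, the reads of a gene scaled to the total of its library, and are not corrected for gene length, so they are compared between lines and not between genes. The 2 libraries of a line are not stated to come from separate cultures, and the p-values reflect only how far such pairs lie apart, which may be technical.

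The 6 libraries held 17117491 to 19652670 reads, of which 5.81% to 9.19% fell in listed genes. For a gene with no read in a library the upper limit is 3 reads, or 0.153 to 0.175 CPM in these 6 libraries, and this limit covers counting error only. How the authors chose the 2221 genes is not stated. Of them, 99.3% had a mean level in T98G, KALS-1 and LN-18 that lay at least 2-fold from that of the other 5 lines of the table (KNS-42, LN-229, SNU-1105, U-138MG and U-87MG), so counts describe listed genes only, and where T98G lies among the other 5 lines is tied to that choice. VIM, the intermediate filament of glioblastoma cells in culture, was at 1487 and 1247 CPM in T98G, against 2399 and 2269 CPM in KALS-1 and 1236 and 1245 CPM in LN-18. SOX2, a factor of neural stem cells, had 1 read in the T98G libraries together. The glial markers GFAP, S100B, OLIG2, NES, AQP4 and SOX9 were not analysed here.

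Several of the gene groups described here belong to stress responses. NRF2 is a transcription factor that is held low by KEAP1 and, when released by oxidants or electrophiles, binds antioxidant response elements beside genes of glutathione synthesis, NADPH supply and detoxification. Misfolded proteins in the endoplasmic reticulum start the unfolded protein response, which raises chaperone genes through ATF6 and XBP1, while amino acid shortage raises transporter and metabolic genes through ATF4. Both responses are known in glioblastoma cells and depend on the state of the culture.

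Of 1578 tested genes, 131 were called higher in T98G (8.30%) and 263 lower (16.7%). Under the same rule, which reuses the same 6 libraries, 313 genes were called higher (19.8%) and 201 lower (12.7%) in KALS-1, and 262 higher (16.6%) and 107 lower (6.78%) in LN-18. With no test at all, both T98G libraries lay above all 4 others for 247 genes (15.7%) and below them for 474 (30.0%). The median log2 fold change of all tested genes was -0.50 against KALS-1 and -0.47 against LN-18, so the typical listed gene lay lower in T98G. Scaling by TMM factors of the listed genes raised these medians by 0.425 and 0.34 and gave 186 higher and 188 lower genes, which makes 49.7% of the calls higher in place of 33.2%. The plot of both fold changes shows the calls in 2 opposite corners, where the call rule places them.

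**Figure D1:**
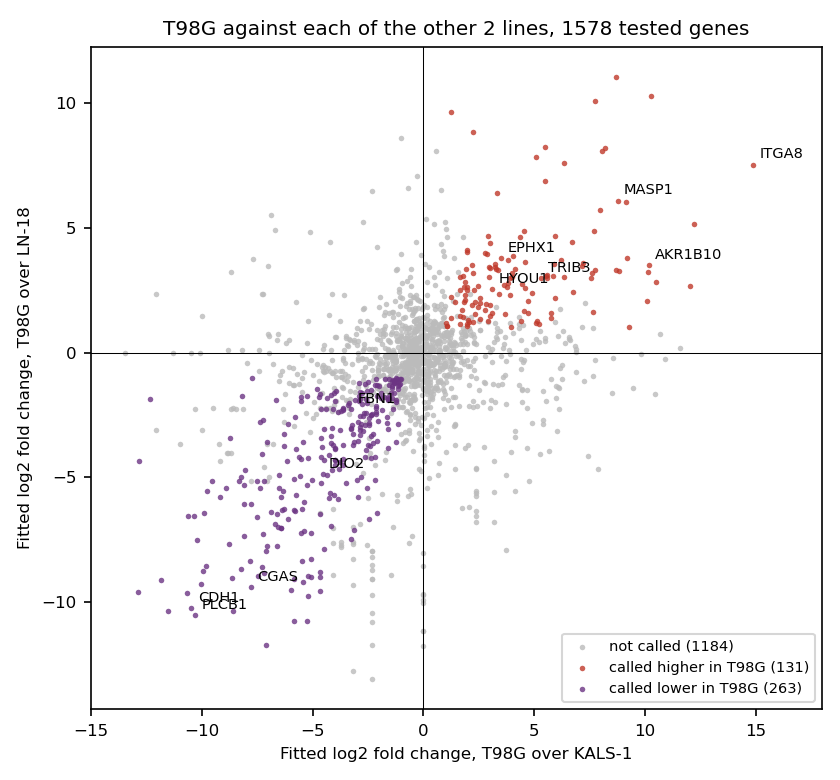
Fitted log2 fold change of T98G over LN-18 (vertical) against that of T98G over KALS-1 (horizontal) for the 1578 tested genes. Red points are the 131 genes called higher in T98G and purple points the 263 called lower; the far ends hold genes with 0 or few reads on one side, for which the fitted size is no bound.

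The genes higher in T98G were mostly high against the rest of the table as well. Of the 131, 88 lay above all 10 libraries of the other 5 lines, 9 below them and 34 within their range. Of the 263 lower genes, 95 lay below all 10 libraries, 16 above them and 152 within their range. Among all 1578 tested genes, 388 lay above, 353 below and 837 within. Of the lower genes, 63 had 0 reads in both T98G libraries. Such genes could be tested only through their reads in KALS-1 and LN-18, and their share among all tested genes was not counted. Among the higher genes 3 had 0 reads in all 4 libraries of KALS-1 and LN-18, a condition on more libraries. All 3 lie on the short arm of chromosome 4. HMX1, a homeobox factor of sensory and craniofacial development (positions 8846076 to 8871817 on GRCh38), was at 6.47 and 10.1 CPM in T98G, at least 101-fold above KALS-1 and 107-fold above LN-18, taking the floor of 3 reads over the 2 libraries of each line. S100P, a calcium-binding protein, was at 1.22 and 2.75 CPM in T98G. HS3ST1, a heparan sulfate sulfotransferase, was at 1.86 and 1.75 CPM in T98G. These 3 genes were singled out after their values were seen.

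The T98G pair was the least alike of the 8 pairs in the table. Of 928 listed genes at a mean of 1 CPM or more in T98G, 54.8% lay within 1.5-fold between the libraries, against 92.8% in KALS-1 and 93.7% in LN-18. Among the other 5 lines the share ran over 70.0% to 91.6%. The common dispersion, which is the squared biological coefficient of variation estimated by edgeR, was 0.164 for the T98G pair, 0.001558 for KALS-1 and 0.001903 for LN-18. A test that pools the 3 lines therefore takes T98G as less variable than its own pair. With the spread of the T98G pair alone, an alternative added after the data were seen, 106 genes were higher and 215 lower. Without 1 library of KALS-1 or LN-18, which leaves the T98G pair more weight in the spread, 75 to 89 genes were higher and 163 to 181 lower.

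Among genes at 10 CPM or more in both T98G libraries, the largest rises were led by an integrin subunit, an adhesion receptor and a complement protease. ITGA8, the alpha subunit of an integrin that binds nephronectin and fibronectin (chromosome 10, 15513949 to 15720125, minus strand), was at 144 and 269 CPM in T98G, against 0 reads in both KALS-1 libraries and 0.94 and 1.27 CPM in LN-18. Both T98G libraries stood far above every other library of the table, where the 10 libraries of the other 5 lines reached at most 0.0998 CPM. The rise was at least 2528-fold over KALS-1 and 187-fold over LN-18 (log2 fold change 7.53, SE 0.44, edgeR Benjamini-Hochberg adjusted p = 0.000148). ADGRG2, an adhesion G protein-coupled receptor best known from the epididymis (chromosome X, 18989309 to 19122637), was at 37.6 and 84.2 CPM in T98G, against 0.642 and 0.817 CPM in KALS-1 and 0.366 and 0.254 CPM in LN-18. MASP1, a serine protease of the lectin pathway of complement (chromosome 3, 187217285 to 187292022), was at 24.8 and 53.2 CPM in T98G, against 0.117 and 0.051 CPM in KALS-1 and 0.47 and 0.661 CPM in LN-18. The KALS-1 level of MASP1 rests on 3 reads, which puts the rise at 469-fold with a 95% exact counting interval of 160 to 2276. Both ADGRG2 and MASP1 were about doubled in the second T98G library relative to the first.

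SUSD2, a sushi domain membrane protein, was at 100 and 131 CPM in T98G, against 0.525 and 0.561 CPM in KALS-1 and 4.13 and 3.77 CPM in LN-18. CTSZ, the lysosomal protease cathepsin Z, was at 65.5 and 83.9 CPM in T98G, against 2.98 and 3.37 CPM in KALS-1 and 3.08 and 2.09 CPM in LN-18. LAPTM5, a lysosomal membrane protein of blood cells, was at 64.1 and 68.1 CPM in T98G, against 0.35 and 0.561 CPM in KALS-1 and 6.32 and 5.75 CPM in LN-18. For these 3 genes the T98G libraries lay close together, and all other libraries of the table were lower, at no more than 12.2 CPM. MPPED2, a metallophosphodiesterase gene, was at 29.5 and 34.9 CPM in T98G and had 0 reads in KALS-1. The long noncoding RNA MIR193BHG, host of miR-193b, was at 28.8 and 42.1 CPM in T98G, against 2.39 and 1.63 CPM in KALS-1 and 3.45 and 3.46 CPM in LN-18. The pseudogene MTCO1P12 on chromosome 1, a nuclear copy of mitochondrial cytochrome oxidase sequence, was at 1536 and 1694 CPM in T98G, against 38.6 and 33.4 CPM in KALS-1 and 14.8 and 12.7 CPM in LN-18. Its reads can be shared with the mitochondrial gene, so its level is uncertain.

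Not all of these genes were particular to T98G once the rest of the table was considered. DOCK5, an activator of the Rac GTPase, was at 35.5 and 30.9 CPM in T98G, against 0.525 and 0.919 CPM in KALS-1 and 0 and 0.204 CPM in LN-18. The other 5 lines held still more, with 45.2 to 275 CPM over their 10 libraries. TMEM47, a junction membrane protein, was at 22.0 and 21.5 CPM in T98G, while the other 5 lines ran over 27.9 to 133 CPM. SEMA5A, a semaphorin with thrombospondin repeats, was at 33.7 and 97.2 CPM in T98G, and only the second library reached the 40.5 to 341 CPM of the other 5 lines. TSHZ3, a zinc finger factor, was at 17.1 and 27.2 CPM in T98G, inside the 15.4 to 56.7 CPM of the other 5 lines. For these 4 genes KALS-1 and LN-18 were the low lines, at no more than 2.22 CPM.

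**Figure D2:**
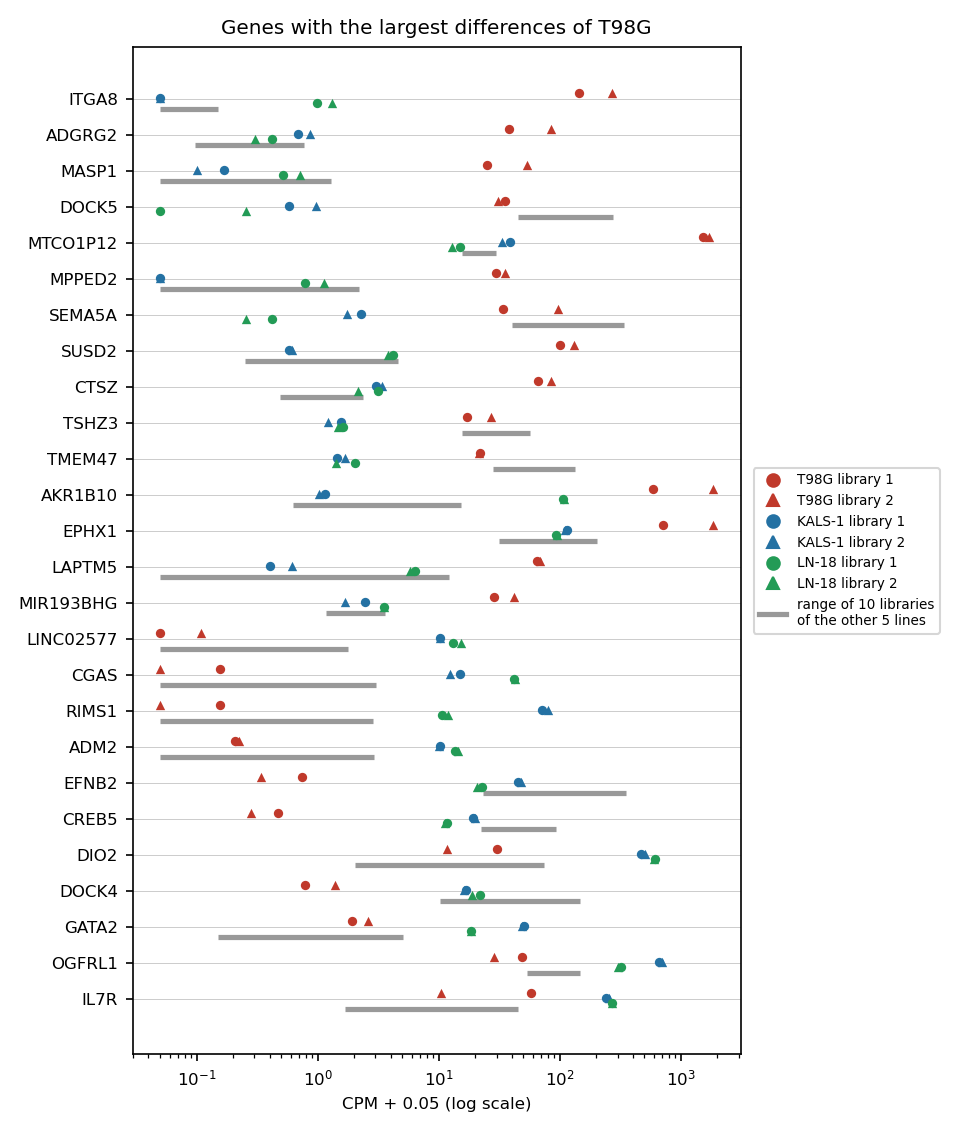
CPM plus 0.05 on a log scale for the 15 genes with the largest rise (upper block, ITGA8 to MIR193BHG) and 11 of the 12 with the largest fall (lower block, LINC02577 to IL7R) in T98G. Circles and triangles are the first and second library of T98G (red), KALS-1 (blue) and LN-18 (green), and grey bars span the 10 libraries of the other 5 lines; DOCK5 at 35.5 and 30.9 CPM in T98G lies under its bar, which starts at 45.2 CPM, whereas ITGA8 lies far above its own.

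The largest falls included a sensor of cytosolic DNA and regulators of the cell surface. CGAS, which makes cyclic GMP-AMP when it meets DNA in the cytosol (chromosome 6, 73413515 to 73452276), was at 0.106 and 0 CPM in T98G, against 15 and 12.5 CPM in KALS-1 and 41.7 and 42.2 CPM in LN-18. The T98G libraries held 2 CGAS reads together, so the level was 245-fold lower than in KALS-1 (95% exact counting interval 67.6 to 2032) and 755-fold lower than in LN-18 (209 to 6239). RIMS1, a scaffold of the presynaptic active zone, likewise had 2 reads in T98G, against 71.2 and 79.4 CPM in KALS-1 and 10.7 and 11.8 CPM in LN-18. Both genes were low in the other 5 lines too, at up to 3 CPM for CGAS and 2.82 CPM for RIMS1, so the libraries of KALS-1 and LN-18 were the high ones. The long noncoding RNA LINC02577 showed the same order, with 1 read in T98G against 10.3 and 10.3 CPM in KALS-1 and 13.0 and 15.2 CPM in LN-18.

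EFNB2, the membrane ligand ephrin-B2, was at 0.689 and 0.292 CPM in T98G, against 44.7 and 47.6 CPM in KALS-1 and 22.7 and 20.8 CPM in LN-18. Here T98G was the lowest of all 8 lines, since the other 5 ran over 22.9 to 352 CPM. Other annotated genes overlap 26.0% of its exon bases. CREB5, a transcription factor of the CREB family, was at 0.424 and 0.234 CPM in T98G, against 19.0 and 19.9 CPM in KALS-1, 11.6 and 11.3 CPM in LN-18 and 22.3 to 92.2 CPM in the other 5 lines. DOCK4, another Rac activator, was at 0.742 and 1.34 CPM in T98G, against 16.8 and 16 CPM in KALS-1 and 21.7 and 18.8 CPM in LN-18. For CREB5 and DOCK4 both T98G libraries also lay under every library of the other 5 lines.

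DIO2, the deiodinase that activates thyroid hormone, was at 30.0 and 11.6 CPM in T98G, against 469 and 504 CPM in KALS-1 and 609 and 596 CPM in LN-18. GATA2, a hematopoietic transcription factor, was at 1.86 and 2.57 CPM in T98G, against 50.8 and 48.5 CPM in KALS-1 and 18.5 and 18.5 CPM in LN-18. OGFRL1 was at 48.6 and 28.7 CPM in T98G, against 657 and 696 CPM in KALS-1 and 322 and 301 CPM in LN-18. T98G lay within the range of the other 5 lines for DIO2 and GATA2, and below it for OGFRL1. IL7R, the interleukin-7 receptor, was at 57.4 and 10.5 CPM in T98G, against 242 and 256 CPM in KALS-1 and 269 and 268 CPM in LN-18. Its T98G libraries differed more than 5-fold, and leaving out any library of KALS-1 or LN-18 ended its call (edgeR adjusted p up to 0.0789, against 0.0158 with all 6 libraries).

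NRF2 targets were the pathway list with the most genes higher in T98G. Of 34 targets in the list, 16 were in the table and 15 were tested; 11 were called higher and none lower, against 8.30% higher and 16.7% lower over all tested genes. Their median log2 fold change was 3.51 against KALS-1 and 1.60 against LN-18, where the medians of all tested genes were negative. The called genes cover detoxification, glutathione, peroxide removal, NADPH supply and iron storage. AKR1B10, an aldo-keto reductase of reactive aldehydes (chromosome 7, 134527592 to 134541408), was at 583 and 1849 CPM in T98G, against 1.11 and 0.97 CPM in KALS-1 and 105 and 108 CPM in LN-18. It was 11.4-fold higher than in LN-18 (log2 fold change 3.51, SE 0.51, edgeR Benjamini-Hochberg adjusted p = 0.00261). EPHX1, the microsomal epoxide hydrolase (chromosome 1, 225810092 to 225845563), was at 716 and 1848 CPM in T98G, against 115 and 110.3 CPM in KALS-1 and 93.6 and 94.2 CPM in LN-18. AKR1B10 thus had a middle level in LN-18, whereas for EPHX1 KALS-1 and LN-18 were alike. The aldo-keto reductase AKR1C2 was at 1328 and 2862 CPM in T98G, against 1.52 and 1.33 CPM in KALS-1 and 278 and 309 CPM in LN-18, with reads that can be shared with its near-identical paralogs.

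Glutathione and peroxide genes followed. GCLC, the catalytic subunit that limits glutathione synthesis, was at 417 and 562 CPM in T98G, against 22.9 and 22.5 CPM in KALS-1 and 209.8 and 199.9 CPM in LN-18. SRXN1, which repairs oxidised peroxiredoxins, was at 44.4 and 85.1 CPM in T98G, against 2.63 and 2.70 CPM in KALS-1 and 9.19 and 12.4 CPM in LN-18. PRDX1, a peroxiredoxin, was at 916 and 2189 CPM in T98G, against 397 and 370.4 CPM in KALS-1 and 617 and 648 CPM in LN-18. The exons of SRXN1 overlap other annotated genes over 85.0% of their bases and those of PRDX1 over 30.3%, and the deposited files do not say how such reads were counted. OSGIN1, an oxidative stress growth inhibitor, was at 72.7 and 179 CPM in T98G, against 2.33 and 2.30 CPM in KALS-1 and 40.6 and 42.5 CPM in LN-18. The calls of PRDX1 and OSGIN1 were lost when the second T98G library or any library of KALS-1 or LN-18 was left out.

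Genes that supply NADPH were also higher. PGD, of the pentose phosphate pathway (chromosome 1, 10398592 to 10420144), was at 996 and 1667 CPM in T98G, against 230.0 and 227 CPM in KALS-1 and 334 and 344 CPM in LN-18. TALDO1, the transaldolase of the same pathway, was at 609 and 1035 CPM in T98G, against 118 and 121 CPM in KALS-1 and 244 and 257 CPM in LN-18. ME1, the cytosolic malic enzyme, was at 4.77 and 5.96 CPM in T98G, against 0.0584 and 0.102 CPM in KALS-1 and 0.209 and 0.204 CPM in LN-18. ME1 was low in absolute terms and was the 1 called target that lay within the range of the other 5 lines, which reached 178 CPM; the other 10 lay above all 10 libraries of those lines. FTL, the ferritin light chain with many processed pseudogenes, was at 6086 and 11093 CPM in T98G, against 1025 and 973 CPM in KALS-1 and 2744 and 2957 CPM in LN-18, a call lost without either LN-18 library.

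The 4 tested targets that were not called fell short of the rule against LN-18, and 3 of them follow. NQO1, a quinone reductase, was at 2625 and 4257 CPM in T98G, against 353 and 341 CPM in KALS-1 and 1883 and 2021 CPM in LN-18 (log2 fold change 0.82 against LN-18, SE 0.27, edgeR Benjamini-Hochberg adjusted p = 0.0544). TXNRD1, a thioredoxin reductase, was at 2628 and 3216 CPM in T98G, against 1241 and 1241 CPM in KALS-1 and 1625 and 1650 CPM in LN-18. SLC7A11, the cystine importer, was at 1322 and 1401 CPM in T98G, against 28.5 and 32.6 CPM in KALS-1 and 1021 and 947 CPM in LN-18. ABCC1, an exporter of glutathione conjugates from the list of drug response genes, was at 516 and 984 CPM in T98G, against 157 and 152 CPM in KALS-1 and 131 and 133 CPM in LN-18, and was called higher.

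**Figure D3:**
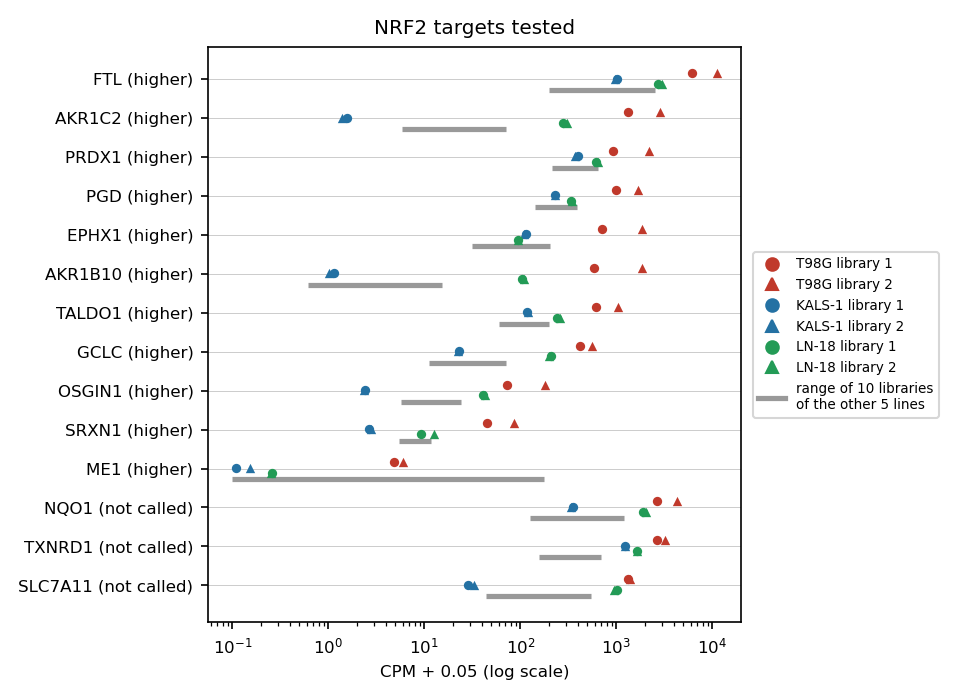
CPM plus 0.05 on a log scale for 14 of the 15 tested NRF2 targets, with the call beside each name. Circles and triangles are the first and second library of T98G (red), KALS-1 (blue) and LN-18 (green), and grey bars span the 10 libraries of the other 5 lines; the second T98G library lies right of the first for all 14, and LN-18 lies between T98G and KALS-1 for most.

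The promoters of 3 called targets are shown because they hold the core of the antioxidant response element (TGACNNNGC, searched on both strands) in the window from 250 bases before to 50 after a RefSeq transcription start. Windows were found for 9 of the 11 called targets and 3 held the core, while 13.3% of all 35116 windows did. The count of targets is of genes, which can have several windows each, so it cannot be set against the share of single windows. The core is in capitals and each stretch is read along the strand of its gene (RefSeq, GRCh38.p14). The stretch of EPHX1 is chr1:225825236-225825324, plus strand, and that of ME1 is chr6:83431140-83431228, minus strand. The stretch of PGD is chr1:10398823-10398911, plus strand, with the core on the opposite strand. The stretches of EPHX1 and PGD lie inside the annotated genes, before starts within them.
EPHX1: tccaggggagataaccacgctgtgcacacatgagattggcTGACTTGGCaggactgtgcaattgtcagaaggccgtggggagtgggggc
ME1: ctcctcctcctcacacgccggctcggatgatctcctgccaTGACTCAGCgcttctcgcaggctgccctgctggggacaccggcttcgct
PGD: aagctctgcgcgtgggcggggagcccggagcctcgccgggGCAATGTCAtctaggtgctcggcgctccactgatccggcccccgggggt
The core ends 70 bases before the start in EPHX1, 129 in ME1 and 193 in PGD. A match describes these letters only, and no binding was measured.

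Chaperone genes of the endoplasmic reticulum were higher in T98G as well, but in the opposite library. Of 18 genes in the list only 4 were in the table, and all 4 were called higher, against 8.30% of all tested genes. All 4 lay above all 10 libraries of the other 5 lines, as did 67.2% of the genes called higher. HYOU1, a large chaperone of the endoplasmic reticulum (chromosome 11, 119044189 to 119057202), was at 3671 and 1068 CPM in T98G, against 278 and 277 CPM in KALS-1 and 411 and 407 CPM in LN-18. CRELD2, a secreted disulfide isomerase-like protein (chromosome 22, 49918167 to 49927540), was at 781 and 222 CPM in T98G, against 49.8 and 51.8 CPM in KALS-1 and 49.1 and 50.7 CPM in LN-18. The level of the first T98G library was over 3-fold that of the second in both genes. Both libraries lay above KALS-1 and LN-18, as every call requires. CRELD2 was 10.1-fold higher than in LN-18 (log2 fold change 3.33, SE 0.54, edgeR Benjamini-Hochberg adjusted p = 0.00409). DNAJB11, a co-chaperone of BiP, was at 818 and 274 CPM in T98G, against 149 and 147 CPM in KALS-1 and 79.6 and 74.5 CPM in LN-18. SDF2L1, its partner in the lumen, was at 163 and 60.5 CPM in T98G, against 35.0 and 36.7 CPM in KALS-1 and 13.4 and 14.3 CPM in LN-18. Other annotated genes overlap 34.7% of the exon bases of DNAJB11.

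With the spread of the T98G pair alone all 4 chaperone calls were kept. Without the first T98G library 2 were kept (HYOU1 and CRELD2), and without a library of KALS-1 or LN-18 no more than 1 was kept, with edgeR adjusted p of up to 0.0505 for CRELD2, 0.0738 for HYOU1, 0.1195 for DNAJB11 and 0.1265 for SDF2L1. The promoter of CRELD2 is shown because it holds the endoplasmic reticulum stress response element, CCAAT and CCACG with 9 bases between. Of 35116 promoter windows 27 (0.077%) held the element on either strand, and it was found in 1 of the 4 chaperone genes. A gene can have several windows, so the count of genes cannot be set against the share of windows. The stretch is chr22:49918514-49918612, plus strand (RefSeq, GRCh38.p14), with the element in capitals, on the opposite strand. The element lies 80 to 62 bases before a start inside the annotated gene.
CRELD2: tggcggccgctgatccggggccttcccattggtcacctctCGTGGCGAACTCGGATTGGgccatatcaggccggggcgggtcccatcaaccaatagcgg

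Genes of the amino acid stress response went both ways. Of 43 in the list 8 were in the table and tested, 3 called higher (37.5%) and 2 lower (25.0%), against 8.30% and 16.7% over all tested genes. TRIB3, a pseudokinase induced by ATF4 and CHOP, was at 551 and 251 CPM in T98G, against 10.4 and 9.54 CPM in KALS-1 and 49.1 and 53.1 CPM in LN-18. SLC6A9, the glycine transporter GlyT1, was at 187 and 173 CPM in T98G, against 17.0 and 17.6 CPM in KALS-1 and 18.8 and 17.5 CPM in LN-18 (log2 fold change 3.31 against LN-18, SE 0.17, edgeR Benjamini-Hochberg adjusted p = 9.16e-05). CBS, the first enzyme of transsulfuration, was at 31.9 and 31.5 CPM in T98G, against 6.25 and 4.64 CPM in KALS-1 and 6.22 and 7.79 CPM in LN-18, with a near-identical copy that can take part of its reads. Of these 3, SLC6A9 and CBS were even between the T98G libraries, unlike TRIB3 and the chaperones. ADM2, a peptide hormone of the adrenomedullin family that ATF4 induces, was at 0.159 and 0.175 CPM in T98G, against 10.1 and 10.0 CPM in KALS-1 and 13.5 and 14.3 CPM in LN-18. ALDH1L2, a mitochondrial folate enzyme, had 3 reads in T98G, against 11.4 and 12.8 CPM in KALS-1 and 0.94 and 1.22 CPM in LN-18. The transporters SLC7A11, SLC38A2 and SLC1A5 were not called.

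**Figure D4:**
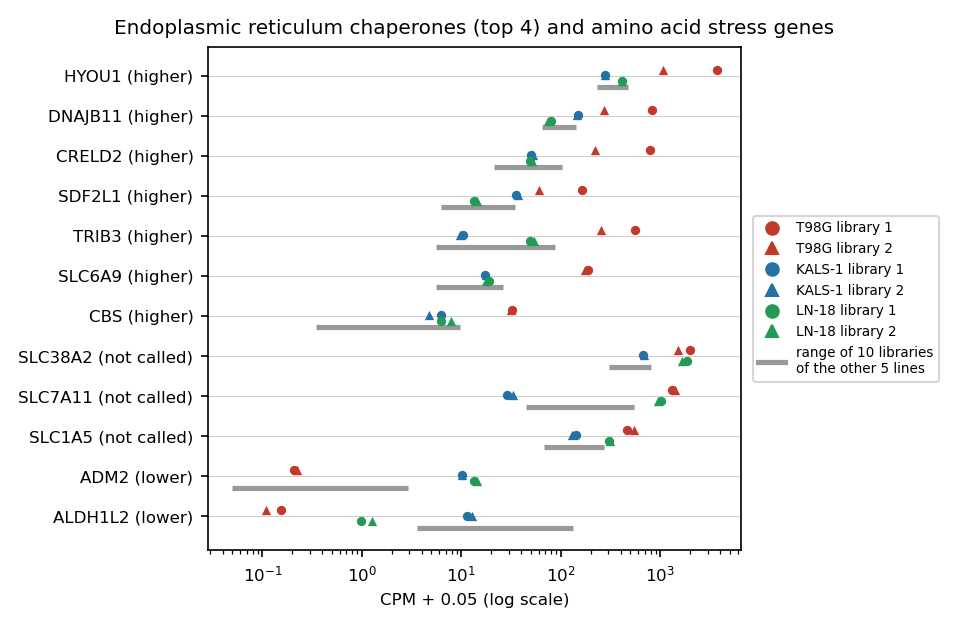
CPM plus 0.05 on a log scale for the 4 chaperone genes (HYOU1 to SDF2L1) and the 8 tested amino acid stress genes (TRIB3 to ALDH1L2), with the call beside each name. Circles and triangles are the first and second library of T98G (red), KALS-1 (blue) and LN-18 (green), and grey bars span the 10 libraries of the other 5 lines; for the 4 chaperones the first T98G library lies right of the second.

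The 2 groups of stress genes lay in opposite directions within the T98G pair. All 15 tested NRF2 targets were higher in the second T98G library, with a median log2 ratio of 0.84, and all 4 chaperones were higher in the first, with a median log2 ratio of -1.68. Over the 928 listed genes at a mean of 1 CPM or more, 576 were higher in the second library and 352 in the first, with a median log2 ratio of 0.20. Of the 131 genes called higher in T98G, 91 were higher in the second library and 40 in the first. The genes that differed most, which were chosen for this difference whether or not they were called, included the keratin KRT80, at 74.1 and 9.99 CPM, the lipoprotein receptor OLR1, at 55.3 and 13.7 CPM, and the protocadherin PCDH1, at 17.2 and 3.68 CPM in the first and second library. In the other direction stood CES1, a carboxylesterase with near-identical copies, at 4.72 and 23.6 CPM, the septin SEPTIN3, at 15.9 and 71.8 CPM, RAP1GAP, which switches off Rap1, at 9.54 and 41.5 CPM, HSPA1A, the inducible heat shock protein with a near-identical copy, at 13.9 and 59.5 CPM, and the scaffold IQGAP2, at 14.6 and 62.7 CPM. CES1 and RAP1GAP were called higher in T98G, CES1 not without either LN-18 library and RAP1GAP in only 1 of the 6 fits that left out a library, and KRT80, OLR1, PCDH1, SEPTIN3, HSPA1A and IQGAP2 were not called. With 1 library on each side these differences have no replicate check.

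**Figure D5:**
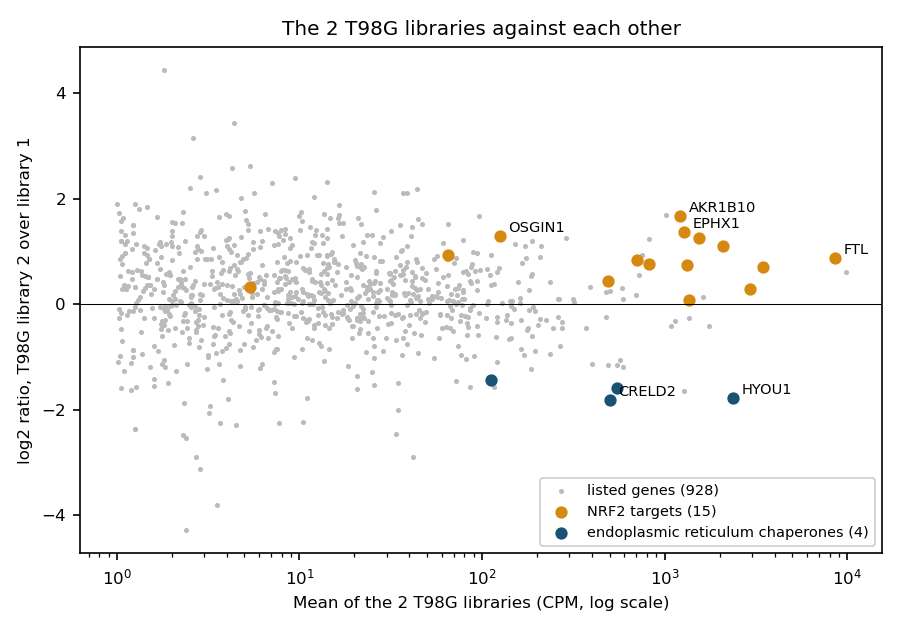
Log2 ratio of the second over the first T98G library (vertical) against the mean of both in CPM on a log scale (horizontal) for 928 listed genes at a mean of 1 CPM or more. Orange points are the 15 NRF2 targets, all above 0, and dark blue points the 4 chaperone genes, all below 0.

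Most tested genes of simple epithelium and most tested cadherins were called lower in T98G. Of 22 genes of simple epithelium 6 were tested and 5 called lower (3 keratins, CDH1 and CDH3), against 16.7% lower over all tested genes. Of 38 cadherins, among which CDH1 and CDH3 count again, 10 were tested, 7 called lower and 1 higher. CDH1, epithelial cadherin (chromosome 16, 68737225 to 68835548), had 0 reads in T98G, against 9.34 and 9.75 CPM in KALS-1 and 7.99 and 8.14 CPM in LN-18, at least 114-fold and 96.7-fold lower. Its neighbour CDH3, placental cadherin, also had 0 reads in T98G, against 24 and 26.2 CPM in KALS-1 and 2.51 and 4.94 CPM in LN-18. KRT19, a simple keratin, had 0 reads in T98G and 0.612 to 1.51 CPM in the 4 other libraries. KRT8, the type II keratin of simple epithelia, was at 13.5 and 13.0 CPM in T98G, against 57.1 and 55.0 CPM in KALS-1 and 153 and 155 CPM in LN-18, though its pseudogenes can take part of its reads. Its partner KRT18 was at 110.1 and 53.5 CPM in T98G, against 188 and 173 CPM in KALS-1 and 196 and 214 CPM in LN-18, a call lost without any library of KALS-1 or LN-18 or without the second T98G library (edgeR adjusted p up to 0.1434). For CDH1, CDH3, KRT19 and KRT8 the T98G values lay within the range of the other 5 lines, and KRT18 lay above it.

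Other cadherins at 0 reads in T98G were PCDH10 and PCDH17, protocadherins of the nervous system. PCDH10 was at 2.33 and 2.91 CPM in KALS-1 and 7.73 and 9.92 CPM in LN-18, at least 31.4-fold and 106-fold above T98G, and T98G was the lowest of the 8 lines. PCDH9 had 2 reads in T98G, CDH24 was at 7.90 and 7.19 CPM, and the giant cadherin FAT1 was at 150.3 and 219 CPM, against 402 to 487 CPM in KALS-1 and LN-18. The call of FAT1 was lost in 4 of the 6 fits that left out a library (edgeR adjusted p up to 0.066). The 1 higher member was CDH15, muscle cadherin, at 3.92 and 4.15 CPM in T98G, against 0.117 and 0.255 CPM in KALS-1 and 0.157 and 0.153 CPM in LN-18. Of 7 tested integrins, ITGA8 and ITGAM were called higher and ITGA3 lower, where 8.30% of all tested genes were higher and 16.7% lower. ITGAM was low, at 1.06 and 2.16 CPM in T98G, with 1 read in KALS-1 and 7 in LN-18. Its call was lost without either LN-18 library. ITGA3, which pairs with beta 1 to bind laminin, was at 282 and 238.9 CPM in T98G, against 598 and 616 CPM in KALS-1 and 586 and 604 CPM in LN-18, a fall that was not called with TMM or RLE factors or with the spread of the T98G pair alone.

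Neuronal and synaptic genes in the table were lower or not called. Of 58 in the list 13 were tested, 6 were called lower and none higher, against 16.7% lower and 8.30% higher over all tested genes. All 6 lay below every library of the other 5 lines, as did 36.1% of the genes called lower. PLCB1, a phospholipase C of G protein signalling (chromosome 20, 8077251 to 8968360), had 0 reads in T98G, against 8.58 and 8.47 CPM in KALS-1 and 10.8 and 8.70 CPM in LN-18, at least 102-fold and 117-fold lower. BCHE, butyrylcholinesterase, also had 0 reads in T98G, against 2.86 and 2.5 CPM in KALS-1 and 3.60 and 3.31 CPM in LN-18. NLGN1, the adhesion molecule neuroligin 1, was at 0.265 and 0.175 CPM in T98G, against 15.1 and 16.8 CPM in KALS-1 and 1.46 and 1.83 CPM in LN-18. T98G was thus below all 7 other lines for PLCB1 and BCHE, whose lowest libraries elsewhere were at 2.10 and 2.5 CPM. The other called members were SYT1, the calcium sensor of vesicle release, with 1 read in T98G, GAP43 of the growth cone, with 4 reads and a call lost without the first LN-18 library, and STX1A, a SNARE protein, at 4.67 and 3.80 CPM in T98G, against 12 and 10.9 CPM in KALS-1 and 10.1 and 11.6 CPM in LN-18.

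Axon guidance genes moved both ways, with 4 of 18 tested members called higher (22.2%) and 3 lower (16.7%). Over all tested genes 8.30% were higher and 16.7% lower, so the lower calls are at the share of all tested genes. UNC5A, a netrin receptor, was at 4.08 and 10.6 CPM in T98G, against 1 read in KALS-1 and 0 in LN-18. The other 5 lines reached 0.153 CPM. FLRT1, an adhesion protein that binds Unc5 and latrophilin receptors, was at 10.5 and 11.7 CPM in T98G, against 0.817 and 1.48 CPM in KALS-1 and 1.15 and 0.763 CPM in LN-18, with 25.3% of its exon bases shared with other genes. SEMA6A was at 1.17 and 2.57 CPM in T98G, a call lost under 10 alternatives, DESeq2 and limma among them. NTNG1, the membrane-anchored netrin G1, had 0 reads in T98G, against 10.8 and 10.9 CPM in KALS-1 and 4.81 and 5.80 CPM in LN-18, and was the lowest of the 8 lines. SEMA7A was at 2.44 and 1.17 CPM in T98G, against 9.98 and 8.73 CPM in KALS-1 and 35.5 and 32.8 CPM in LN-18. EFNB2 completes the lower members, and SEMA5A the higher.

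Among extracellular proteases and inhibitors 17 of 65 were tested, 1 was called higher (5.88%) and 4 lower (23.5%), not far from the 8.30% and 16.7% over all tested genes. SLPI, a secreted inhibitor of leukocyte elastase, was at 50.6 and 72.1 CPM in T98G, against 0.817 and 0.663 CPM in KALS-1 and 7.73 and 7.28 CPM in LN-18. The other 5 lines reached 0.618 CPM. MMP16, a membrane-type matrix metalloproteinase, was at 3.02 and 4.03 CPM in T98G, against 84.4 and 88.2 CPM in KALS-1 and 18.6 and 15.3 CPM in LN-18. ADAMTSL1, a secreted matrix glycoprotein without protease activity, was at 0.106 and 0.117 CPM in T98G, against 12.4 and 15.5 CPM in KALS-1 and 8.98 and 10.8 CPM in LN-18. MMP16, ADAMTSL1 and ADAM23 all lay below every other library of the table in T98G, though the call of ADAM23 was lost without any library of KALS-1 or LN-18 (edgeR adjusted p up to 0.0898).

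Of 77 structural matrix genes 13 were tested, 1 was called higher (7.69%) and 3 lower (23.1%), not far from the 8.30% and 16.7% over all tested genes. LAMA4, the laminin alpha 4 chain of vessel and tumour basement membranes, was at 255 and 271 CPM in T98G, against 18.2 and 19.6 CPM in KALS-1 and 42.7 and 42.7 CPM in LN-18, and within the 131 to 832 CPM of the other 5 lines. FBN1, the microfibril protein fibrillin 1, was at 53.2 and 77.7 CPM in T98G, against 607 and 651 CPM in KALS-1 and 319 and 307 CPM in LN-18. COL11A1, a fibrillar collagen, was at 1.06 and 0.117 CPM in T98G, against 15.6 and 14.2 CPM in KALS-1 and 9.77 and 12.2 CPM in LN-18. COL4A6, a basement membrane collagen, had 0 reads in T98G, and its call rested on 11 reads in KALS-1 and was lost under 6 alternatives, TMM factors among them. Fibronectin, FN1, was not called, at 476 and 1546 CPM in T98G, against 2233 and 2266 CPM in KALS-1 and 356 and 333 CPM in LN-18.

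The lists of secreted signals and their receptors held few tested genes each. TNFRSF11B, the decoy receptor osteoprotegerin, was at 490 and 1154 CPM in T98G, against 0.0584 and 0.306 CPM in KALS-1 and 134 and 125 CPM in LN-18. It was 6.33-fold higher than in LN-18 and above the 4.18 CPM that the other 5 lines reached at most. In the same family, TNFRSF10A, a death receptor for TRAIL, had 0 reads in T98G, against 1.05 and 0.817 CPM in KALS-1 and 22.0 and 22.7 CPM in LN-18. NGFR, the p75 neurotrophin receptor, was at 0.212 and 0.234 CPM in T98G, against 2.39 and 1.74 CPM in KALS-1 and 2.87 and 3.10 CPM in LN-18. These made 1 higher and 2 lower of 5 tested TNF family genes.

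In the BMP and TGF-beta pathway 10 genes were tested and 4 called lower, of which LTBP1, a latent TGF-beta binding protein at 25.6 and 11.3 CPM in T98G against 77.3 and 77.4 CPM in KALS-1 and 123 and 125 CPM in LN-18, was the only one above 5 CPM in KALS-1 and LN-18. The calls of BMPR1B and NOG were each lost without any library of KALS-1 or LN-18. That of NOG was also lost with TMM factors and with the spread of the T98G pair alone. Of 9 tested Wnt genes, TCF7 was called higher (11.1%) and WNT7B and FZD8 lower (22.2%), not far from the shares over all tested genes. TCF7, a transcription factor of Wnt signalling, was at 26.2 and 40.3 CPM in T98G, against 4.14 and 4.54 CPM in KALS-1 and 12.9 and 14.8 CPM in LN-18. The call of TCF7 was lost without either LN-18 library, without the second T98G library and with the spread of the T98G pair alone, and that of FZD8 without any library of KALS-1 or LN-18, with that spread and with TMM factors. Of 11 tested genes of receptor tyrosine kinases and their ligands, GDNF was called higher, at 3.66 and 9.87 CPM in T98G, and PDGFB and KDR lower. These shares, 9.09% higher and 18.2% lower, were near those over all tested genes. The call of GDNF was lost without either KALS-1 library, that of PDGFB without any library of KALS-1 or LN-18 and with TMM or RLE factors, and that of KDR in 3 of the 6 fits that left out a library. DUSP2, a phosphatase of ERK and the 1 of 4 immediate early genes that was called, had 0 reads in T98G, against 49.0 and 52.4 CPM in KALS-1 and 4.34 and 5.95 CPM in LN-18. Of 6 tested cytokines CXCL3 was called higher, at 7.42 and 1.52 CPM in T98G and under 0.51 CPM in the other 4 libraries, a call lost without any library of KALS-1 or LN-18 (edgeR adjusted p up to 0.108).

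Interferon response genes were high in KALS-1. Of 34 in the list 20 were tested, 6 were called lower in T98G (30.0%) and 1 higher (5.0%), against 16.7% and 8.30% over all tested genes. OAS3, a sensor of double-stranded RNA, was at 30.1 and 34.1 CPM in T98G, against 501 and 520.1 CPM in KALS-1 and 121 and 125 CPM in LN-18. HERC6, a ubiquitin ligase, was at 4.45 and 4.62 CPM in T98G, against 82.5 and 82.9 CPM in KALS-1 and 15.4 and 13.8 CPM in LN-18. Both showed the order that the 6 lower genes shared, with KALS-1 highest and T98G lowest. The median log2 fold change of the list was -4.65 against KALS-1 and -0.60 against LN-18, where that of all tested genes was -0.47. IFI27, IFI44L, USP18 and CMPK2 were the other lower genes, and IFI27 rested on 5 reads in T98G and 20 in LN-18. The call of IFI27 was lost in 4 of the 6 fits that left out a library, and that of IFI44L in 2. The higher gene, XAF1, was at 13.3 and 7.36 CPM in T98G, against 0.175 and 0.408 CPM in KALS-1 and 3.87 and 5.24 CPM in LN-18, an edgeR adjusted p of 0.0488 and 69.9% of its exon bases shared with other genes. That call was lost in 5 of the 6 fits that left out a library.

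Of 9 tested genes of antigen presentation 5 were called higher in T98G and none lower, against 8.30% and 16.7% over all tested genes. All 5 belong to the MHC class II pathway and were at a low level. HLA-DRB1, HLA-DRB5, HLA-DQA1, HLA-DQB1 and HLA-DOA, also of class II, had too few reads in these libraries to be tested. In T98G, HLA-DRB5, HLA-DQA1 and HLA-DQB1 had 0 reads, HLA-DOA had 2 and HLA-DRB1 had 7. HLA-DPA1, also of class II, was not called, at 7.58 and 10.6 CPM in T98G, against 0.525 and 0.204 CPM in KALS-1 and 7.99 and 8.80 CPM in LN-18. The class I genes HLA-C, PSMB9 and PSMB10 were not called either. CIITA, the master regulator of class II transcription, stood at 4.51 and 11.0 CPM in T98G, against 1.34 and 0.868 CPM in KALS-1 and 2.14 and 1.88 CPM in LN-18. HLA-DRA was at 1.59 and 1.52 CPM in T98G, against 0.051 CPM or less in KALS-1 and 0.305 CPM or less in LN-18. CD74, the invariant chain, was at 1.96 and 1.93 CPM in T98G, against 0.408 CPM or less in KALS-1 and 0.261 CPM or less in LN-18. The other 5 lines reached 1145 CPM for HLA-DRA and 2265 CPM for CD74, so T98G lay near the bottom of their range. HLA-DMA and HLA-DMB were higher mainly in the second T98G library, at 6.10 and 16.9 CPM and at 3.02 and 9.87 CPM. Without 1 library of KALS-1 or LN-18, 0 to 3 genes of the list were called higher. In bulk RNA, fewer cells with a transcript and less of it per cell cannot be told apart.

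Markers of other cell types gave no whole set that was high in T98G. Of 7 immune cell genes 4 were called higher (LAPTM5, ITGAM, HLA-DRA and CD74) and 2 lower (CD14 and CSF1R), against 8.30% and 16.7% over all tested genes. Without the first LN-18 library 1 was called higher, LAPTM5, and 0 lower, and without the second 2 and 0. The summed level of the 7 genes was 69.2 and 74.3 CPM in T98G, against 17.3 and 19.6 CPM in KALS-1 and 9.04 and 8.75 CPM in LN-18. Nearly all of the T98G sum was LAPTM5, and PTPRC, the pan-leukocyte marker CD45, had 1 read in the T98G libraries together. Of 4 endothelial and mural genes KDR was called lower, and the summed level was 24.5 and 19.3 CPM in T98G, against 46.1 and 45.0 CPM in KALS-1 and 19.7 and 19.4 CPM in LN-18. The part of other cells in these values was not tested.

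Several lists showed little that set T98G apart from both lines. None of the 6 tested p53 targets was called, and MDM2, the ubiquitin ligase that p53 induces, was at 44.5 and 31.3 CPM in T98G, against 45.8 and 43.4 CPM in KALS-1 and 60.2 and 53.4 CPM in LN-18. None of 6 genes of lipid uptake, 2 hypoxia genes and 1 cell cycle gene was called. IGFBP5, a binding protein of insulin-like growth factors, stood at 7773 and 11818 CPM in T98G, against 5026 and 5189 CPM in KALS-1 and 3707 and 3649 CPM in LN-18, above all 4 libraries but 1.92-fold over KALS-1 and so under the fold required. Of 3 tested astrocyte and oligodendrocyte genes GJA1, the gap junction protein connexin 43, was called lower. It was at 31.1 and 35.3 CPM in T98G, against 98.4 and 95.1 CPM in KALS-1 and 79.5 and 84.8 CPM in LN-18. Its call was lost with TMM factors and with the spread of the T98G pair alone. Of 9 mesenchymal genes 2 were called lower, among them the homeobox gene MEOX2, and of 4 neural progenitor genes the Notch ligand JAG2 was lower. Of 8 complement genes 1 was called higher, MASP1, and 1 lower. Beside these counts stand the shares over all tested genes, 8.30% higher and 16.7% lower.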

How the data were processed

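The authors deposited raw read counts, FPKM and gene length for each listed gene and library; the FPKM divide the counts by that length and the reads of the library. The tools named per the submitters' processing notes, with no role, are StringTie 1.3.3, HTSeq 0.6.0, HISAT2 2.2.1, cutadapt 1.9.1 and FastQC 0.10.1, and the build is GRCh38. The strand setting of the counting is not stated. Library totals were computed from counts, length and FPKM over genes with both 20 FPKM and 200 reads or more; the totals that these gave for a library agreed within 0.0258%, and at least 99.91% of the FPKM were given back within 0.01. Names came from the gene table for 1917 genes and otherwise from GENCODE 29, which held 2153 of the 2221 IDs and gave coordinates and exon overlap on either strand.

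Genes with at least 10 reads in at least 2 of the 6 libraries were tested (1578; 643 were not) with the edgeR 4.0.16 quasi-likelihood test in R 4.3.3, with the computed totals as library sizes and 1 coefficient per line; each SE was derived as the absolute log2 fold change over the root of F. The procedure was tested on simulated data. Alternatives were TMM and RLE factors, no low-count filter, DESeq2 1.42.0, limma 3.58.1 on log2 CPM (prior count 2) (with and without a weight per line), all 16 libraries in the fit, the replicate block, other contrasts and thresholds, and each library left out.

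Named genes are, among called genes, the 15 with the largest rise at 10 CPM or more in both T98G libraries, the 12 with the largest fall at 10 CPM or more in all 4 others, and up to 4 per list and direction; added to these, called or not, are the 5 per direction that differ most between the T98G libraries. Other list members were named after their values were seen. The comparison, the 30 gene lists and the rules were chosen with earlier results of these data known. Ratios against a line with 0 reads use 3 reads over its 2 libraries; those with 1 to 3 reads carry 95% exact binomial counting intervals. The table of the other 3 lines was not used here. Results for some genes are not reported here.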

Additional observations from a re-analysis of the deposited data

How the results depend on the processing

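Against 131 genes higher and 263 lower, TMM factors gave 186 and 188, RLE factors 179 and 203, no low-count filter 133 and 266, DESeq2 127 and 251, limma 122 and 284, limma with a weight per line 104 and 205, and all 16 libraries in the fit 140 and 278. A single contrast with the log mean of KALS-1 and LN-18, which does not require both lines to pass, gave 202 and 410, of which 134 lay above and 145 below the other 5 lines (88 and 95 in the report). A log2 fold change of at least 2 gave 79 and 190, of which 57 lay above the other 5 lines. Dropping the requirement that the groups not overlap changed neither count. The spread of the T98G pair alone, added after the data were seen, gave 106 and 215. Leaving out 1 library gave 75 to 165 higher and 163 to 292 lower genes, of which 55 to 109 lay above and 65 to 113 below the other 5 lines. The lowest counts came without the first LN-18 library (75 and 163). Without the second LN-18 library 85 genes were higher. Where a T98G library is left out, the other is assumed to vary like the KALS-1 and LN-18 pairs, so those p-values are too small.

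The share of genes on which the T98G libraries lay within 1.5-fold was 54.8%, within 2-fold 76.1%, and at 10 CPM or more 58.7%. Of the 96 called genes that the naming rule picked, 62 kept their call under every alternative and none changed direction. Called genes named outside that rule are not in this count, and some lost their call, among them PRDX1, OSGIN1, KRT18 and FAT1. The replicate block gave 126 higher and 244 lower genes. Same-numbered libraries did not deviate together (correlations across genes of -0.031, -0.021 and 0.025). Whether the numbers pair the libraries cannot be told from this, since the KALS-1 and LN-18 pairs hardly differed within themselves.

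With 2 libraries per line, small differences of T98G were not detectable at its spread, and genes under 10 reads were not tested.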

Other observations

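Some gene families were counted after the values were seen. Of 23 tested zinc finger genes with names starting in ZNF, 1 was called higher in T98G and 7 lower, where 8.30% of all tested genes were higher and 16.7% lower. Of 12 tested potassium channel genes none was called higher and 4 lower, and of 42 tested intergenic noncoding RNAs named LINC 2 were higher and 7 lower, which for the lower calls is the share over all tested genes. Neither of the 2 tested HOX genes was called.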
